A study of Mus musculus with 6 samples.

Results

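The transcription factors Pax2, Pax8, Gata3, Tfap2a, Tfap2b, Grhl2, Tfcp2l1, Ehf and Elf3 act in the epithelium of the kidney tubule and of the distal nephron, and their RNA levels were examined in mDCT15 cells. The members were chosen by gene symbol, as the rows of the authors' expression table that carry these 9 names. Of the 9 genes, 8 have a row among the 20624 genes of the table, and Tfap2b has no row in the table analysed here. RNA was sequenced from 3 samples of Pkd1-/- cells and 3 samples of wild type cells of mDCT15, a mouse line from the distal convoluted tubule. The Pkd1-/- cells were made by CRISPR/Cas9 editing of Pkd1, which encodes polycystin-1, and both genotypes were grown in DMEM/F12 medium with fetal bovine serum and penicillin-streptomycin. The sample titles call the edited cells Pkd1-/-, whereas the genotype field of their labels calls them a knockdown. The sources used here do not say how many edited clones were used. The titles number the samples as biological replicates.

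The value analysed here is the authors' mean normalized count, a single value per gene over all 6 samples of both genotypes. It carries no spread between replicates and does not show how deeply each sample was sequenced, so the depth is unknown. A difference between Pkd1-/- and wild type cells was therefore not analysed here, and no p-value was computed. The mean still sets limits, since a normalized count cannot be negative. With 3 samples per genotype, the mean of either genotype can be at most 2 times the mean over all samples, and at least 1 genotype had a mean at or above it. Pkd1 itself, the edited gene (ENSMUSG00000032855, chr17:24768808-24815482, GRCm39), had a mean normalized count of 3175. This pooled value does not check which samples were edited.

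These factors bind DNA and switch on the gene programs of epithelial tubule cells. Pax2 and Pax8 set up the nephric lineage in the embryo, and Gata3 acts with them in the nephric duct and its derivatives. Tfap2a and Tfap2b are AP-2 factors of the distal tubule and collecting duct, and Tfap2b is needed for the distal convoluted tubule to form. Tfcp2l1 and Grhl2 belong to the Grainyhead and CP2 superfamily and act in distal nephron and collecting duct epithelium, while Elf3 and Ehf are ETS factors found mainly in epithelia.

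The 8 genes with a row ranged from very low to high levels. A mean of at least 10 was reached by 7 of the 9 genes, against 66.5% of all genes in the table. A mean of at least 100 was reached by 6 of the 9, against 50.3% of all genes, and a mean of at least 1000 by 3 of the 9, against 20.9%. Pax8, Tfcp2l1 and Pax2 were the 3 genes past 1000. Grhl2 had a mean under 10, and Tfap2b, without a row, was counted with it. Among the 8 genes with a row, 7 reached 10, 6 reached 100 and 3 reached 1000. All 20624 genes of the table have a row, and 13862 of them are protein-coding. Because long transcripts yield more fragments, levels of different genes were compared as the mean normalized count per kilobase of annotated exon. The authors' mean rose with exon length across genes, but its exact normalization is not known, so levels per kilobase are approximate. On this scale 5 of the 9 genes were above the median of all genes, which was 28.6 per kilobase. The order per kilobase was Pax8, Tfcp2l1, Pax2, Tfap2a, Elf3, Ehf, Gata3 and Grhl2. It is an order of means over both genotypes, so neighbours in it cannot be said to differ beyond the spread between samples, and the order within each genotype is not known. Per kilobase of coding sequence alone, the levels of the 8 genes were 2.50 to 6.61 times higher, and their order was unchanged. With the longest transcript as the length, Pax2 (509 per kilobase) came before Tfcp2l1 (429.8 per kilobase), so the order of these genes depends on the length used.

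**Figure D1:**
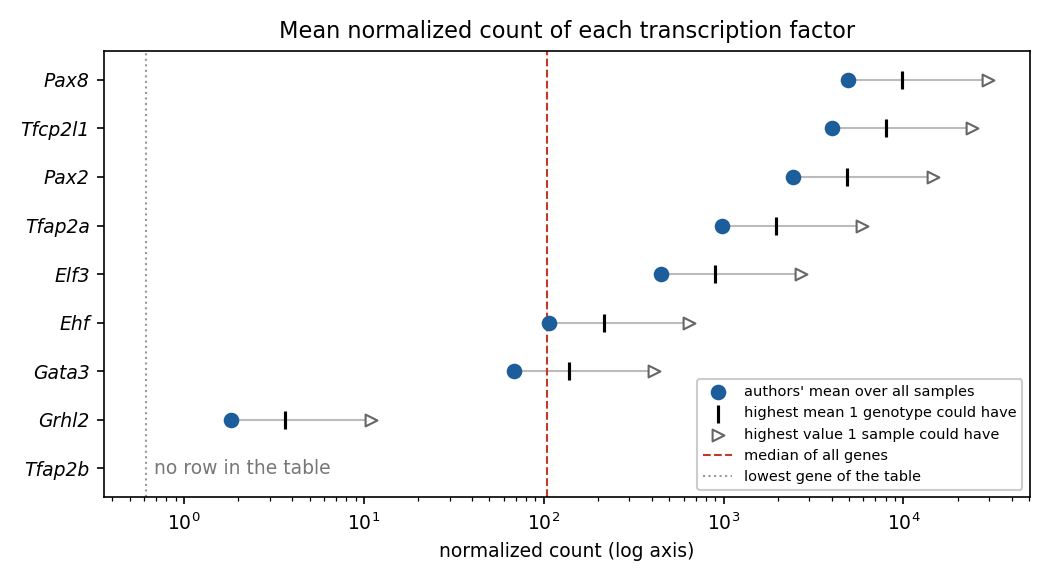
Mean normalized count of each gene over all samples (filled points, log axis), with the highest mean that 1 genotype (bar) and the highest value that 1 sample (triangle) could have had given that mean. The dashed line marks the median of all genes (104.5) and the dotted line the lowest gene of the table (0.618), and Tfap2b has no row. Grhl2 stays below 10 in either genotype, while the means of Pax8, Tfcp2l1 and Pax2 lie above 1000.

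Pax8, a paired-box factor of the nephric lineage that adult tubule cells keep (ENSMUSG00000026976, chr2:24309418-24365617, minus strand, GRCm39), had a mean normalized count of 4905. Its level per kilobase was 679, higher than that of 96.7% of the genes with a known length and 95.3% of protein-coding genes. The mean in either genotype can have been at most 9810.4. Pax8 thus had the highest level of the 8 genes with a row, both per kilobase and as deposited. It held 60.9% of the summed level per kilobase of the PAX family.

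Pax2, which acts redundantly with Pax8 in the nephric lineage (ENSMUSG00000004231, chr19:44735057-44826703, plus strand), reached 2428 as its mean normalized count, or 373 per kilobase. This was above 92.1% of genes and 88.9% of protein-coding genes. The ratio of Pax8 to Pax2 per kilobase was 1.82, and with the longest transcript as the length it was 2.59. Both Pax2 and Pax8 were far above the rest of their family. Pax9, a factor of pharyngeal pouches and teeth, had 33.5 per kilobase and Pax3, a factor of neural crest and muscle precursors, had 28.8 per kilobase, both close to the median of all genes. Pax6, the eye and pancreas factor, had a mean normalized count of 1.72. Pax1, Pax4, Pax5 and Pax7 have no row in the table analysed here.

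To show the regulatory sequence beside these levels, the 250 bases before the start of the canonical transcript were read from GRCm39 for the genes with the highest levels per kilobase of exon, Pax8 (chr2:24365618-24365867, minus strand) and Tfcp2l1 (chr1:118555386-118555635, plus strand). Neither window holds an annotated exon. The start sites are those of the annotation and were not measured in these cells. Capitals mark CpG dinucleotides, the sites of DNA methylation that cluster in CpG islands.
Pax8: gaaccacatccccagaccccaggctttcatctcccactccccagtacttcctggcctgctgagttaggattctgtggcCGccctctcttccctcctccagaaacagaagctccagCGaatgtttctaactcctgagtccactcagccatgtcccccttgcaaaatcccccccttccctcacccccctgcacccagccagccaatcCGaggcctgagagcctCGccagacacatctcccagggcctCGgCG
Tfcp2l1: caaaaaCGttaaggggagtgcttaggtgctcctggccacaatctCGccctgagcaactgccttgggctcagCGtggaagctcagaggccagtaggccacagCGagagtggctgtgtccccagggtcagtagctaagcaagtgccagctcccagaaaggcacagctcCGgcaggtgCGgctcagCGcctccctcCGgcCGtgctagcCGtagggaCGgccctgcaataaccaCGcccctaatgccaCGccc

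The Pax8 window holds 6 CpG dinucleotides and the Tfcp2l1 window 13, against a median of 12 in the same window of the 13862 protein-coding genes of the table. Fewer CpG than in Pax8 were found in 21.5% of these windows. Across the 9 genes the number ran from 4 in Elf3 to 17 in Gata3. The CpG number and the level did not go in the same order, since Gata3, with the highest number, had a level below the median of all genes, and Pax8, with the highest level, had few. The windows of Grhl2 (all 250 bases), Gata3 (229 bases), Tfap2a (204 bases) and Ehf (99 bases) overlap annotated exons of other transcripts or genes, so they are not purely upstream sequence. Short motifs were searched on both strands of each window. The GC box GGGCGG, a promoter element bound by Sp factors, was found in Pax8 and Gata3 and in 48.4% of all windows. CCAAT, bound by the factor NF-Y, was found in Pax8, Tfap2a, Grhl2 and Ehf and in 36.3% of all windows. The TATA box TATAAA was found in Tfap2a and Tfap2b and in 7.46% of all windows. The AP-2 motif GCCNNNGGC was found in Pax2, Gata3, Tfap2a, Tfcp2l1, Grhl2 and Elf3, which is 6 of the 9 genes, and in 16.1% of all windows. CACCTG, an E-box that ZEB and Snail repressors bind, was found in Pax2, Tfcp2l1, Grhl2, Elf3 and Ehf and in 17.0% of all windows. The GATA motif AGATAA (7.08% of all windows), the ETS motif CCGGAAG (9.32%) and ACCGGT, the centre of the Grainyhead motif (2.65%), were in none of the 9 windows. A match describes the letters of these windows and does not show that a factor binds there.

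**Figure D2:**
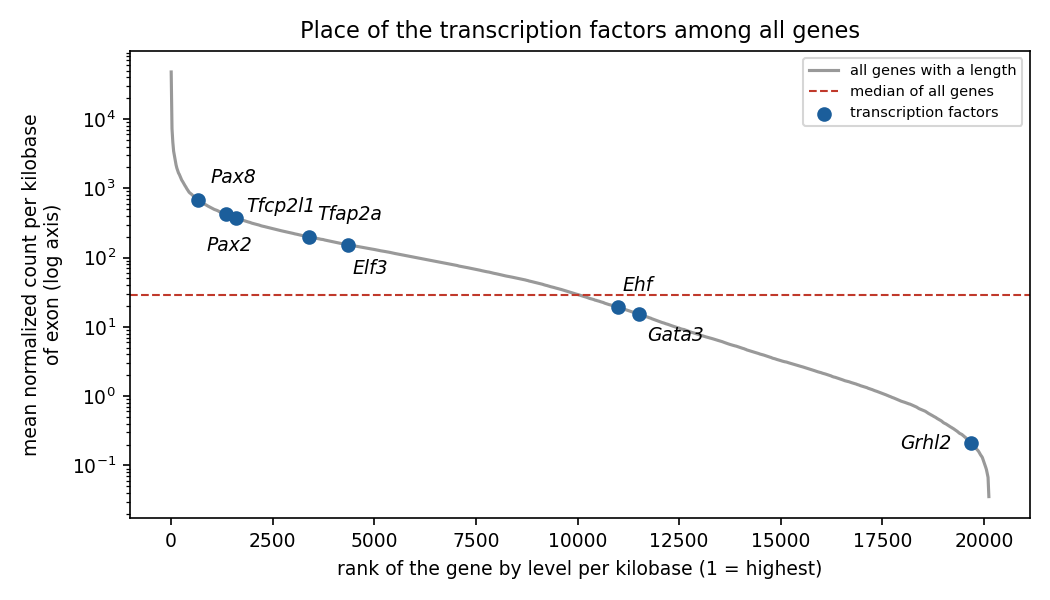
Level of every gene with a known length against its rank (grey line, log axis), with the 8 genes that have a row marked. The dashed line is the median of all genes (28.6 per kilobase). Pax8, Tfcp2l1, Pax2, Tfap2a and Elf3 lie above it, Ehf and Gata3 somewhat below, and Grhl2 near the low end.

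Tfcp2l1, a CP2 factor that patterns principal and intercalated cells in the collecting duct (ENSMUSG00000026380, chr1:118555636-118612915, plus strand), had a mean normalized count of 4007. Its level was 422 per kilobase, above 93.3% of genes and 90.7% of protein-coding genes. The mean in either genotype can have been at most 8014. Tfcp2l1 made up 63.9% of the summed level per kilobase of its superfamily. Its CP2 relatives are found in most tissues and were lower, with 159 per kilobase for Ubp1 and 62.6 per kilobase for Tfcp2.

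Grhl2, a Grainyhead factor that maintains cell junctions and the epithelial barrier (ENSMUSG00000022286, chr15:37233280-37363813, plus strand), was at the opposite end. It had a mean normalized count of 1.82, or 0.211 per kilobase, and 2.18% of genes were lower per kilobase. By the mean itself, 13.7% of genes were lower than Grhl2. Its mean in either genotype can have been at most 3.64, and no single sample can have had a value above 10.9. Grhl2 was therefore low in Pkd1-/- and in wild type cells alike, although a difference between them below these limits is not known. The level of Tfcp2l1 was 1999 times that of Grhl2 per kilobase of exon, and between 1169.5 times (longest transcript) and 2876 times (coding length) with other lengths. The other Grainyhead genes were low to moderate. Grhl3, a factor of the skin barrier, had 13.4 per kilobase and Grhl1, a factor of epidermal desmosomes, had 3.11 per kilobase. Ncald lies on the opposite strand and overlaps the annotated span of Grhl2, and it had a mean normalized count of 456. Of 20 annotated genes on the strand opposite one of the 9 factors, 6 have a row, and reads from such overlaps may be hard to assign. A gene absent from the annotation that the authors counted with could not have a row.

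Grhl2 is known to activate junction and epithelial genes, among them Cdh1, Cldn4, Rab25, Ovol2 and Esrp1. Cdh1, which encodes E-cadherin, and Ovol2, a repressor of mesenchymal genes, have no row in the table analysed here. Cldn4, Rab25 and Esrp1 were picked out after their values were seen. Cldn4, a tight junction protein, had a mean normalized count of 4.00. Rab25, a GTPase of epithelial vesicle recycling, had a mean of 4.10, and Esrp1, an epithelial splicing regulator, had a mean of 7.37. All 3 means were under 10, as were the means of 6900 of the 20624 genes in the table. Because these genes were picked by their values, nothing is concluded from this. ZEB, Snail and Twist proteins repress epithelial genes. All 6 repressors of this kind had a mean of at least 10, against 66.5% of all genes, and 3 of the 6 lay above the median of all genes per kilobase, the same share as among all genes. The highest levels were those of Twist1 (103 per kilobase), Zeb1 (85.7 per kilobase) and Twist2 (68.5 per kilobase). A link between these repressors and Grhl2 was not tested.

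Tfap2a, an AP-2 factor (ENSMUSG00000021359, chr13:40868778-40891852, minus strand), had a mean normalized count of 977, or 199 per kilobase. This was above 83.1% of genes and 76.3% of protein-coding genes. Its mean in either genotype can have been at most 1955. Tfap2a is the AP-2 gene with a row in the table, while Tfap2b (ENSMUSG00000025927, chr1:19279138-19309069, plus strand), Tfap2c, Tfap2d and Tfap2e have none. A missing row is not a measured value of 0, so the level of Tfap2b is not given here. The lowest mean in the table was 0.618, and 5385 genes had a mean under 5, which shows how low a gene with a row can be. On the strand opposite Tfap2a lie Gm26688, Gm47061 and Gm47067, noncoding genes with mean normalized counts of 7.19, 6.24 and 1.33.

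Elf3, an ETS factor of differentiating epithelia (ENSMUSG00000003051, chr1:135181306-135188999, minus strand), had a mean normalized count of 450.3, or 153 per kilobase. This was above 78.4% of genes and 69.7% of protein-coding genes. Its mean in either genotype can have been at most 901. Ehf, its close relative (ENSMUSG00000012350, chr2:103093778-103133623, minus strand), had a mean normalized count of 108, or 19.2 per kilobase, above 45.3% of genes and 27.8% of protein-coding genes. The ratio of Elf3 to Ehf was 8.0 per kilobase of exon and 3.21 per kilobase of coding sequence, so its size depended on the length used while its direction did not. The broadly expressed relatives were higher than both. Elf1 had 213, Elf4 211 and Elf2 196 per kilobase. Elf3 held 19.4% and Ehf 2.42% of the summed level per kilobase of the ETS genes compared here, Elf1 to Elf5 and Ehf. Elf5, a factor of mammary and placental epithelium, has no row in the table analysed here.

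Gata3, a zinc finger factor of the nephric duct and collecting duct (ENSMUSG00000015619, chr2:9861889-9894845, minus strand), had a mean normalized count of 68.8. Its level was 15.1 per kilobase, above 42.7% of genes and below their median, and above 25.7% of protein-coding genes. The mean in either genotype can have been at most 138. Gata3 was not the highest gene of its family. Gata4 and Gata6, known mainly from heart and endoderm, had 49.96 and 25.2 per kilobase, and Gata2 had 11.1 per kilobase. Gata1, the erythroid factor, had a mean of 0.731, and Gata5 has no row. Gata3 held 14.9% of the summed level per kilobase of the GATA family. The ratio of Tfap2a to Gata3 per kilobase was 13.2, and that of Ehf to Gata3 was 1.27, or 2.31 per kilobase of coding sequence.

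**Figure D3:**
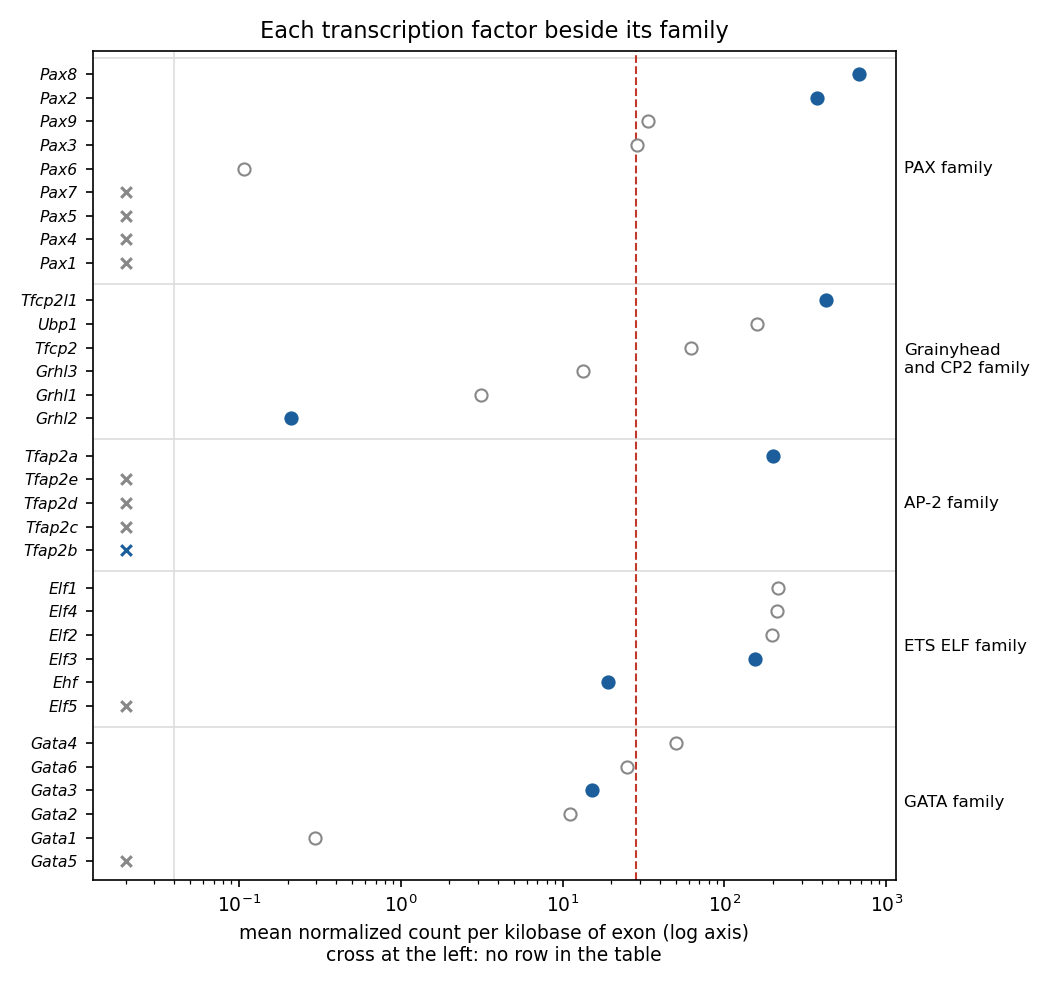
Level per kilobase of exon (log axis) of the examined transcription factors (filled) and of the other genes of their families (open), over all samples. The dashed line is the median of all genes, and a cross marks a gene with no row. Pax8, Pax2 and Tfcp2l1 lead their families and Tfap2a is the AP-2 gene with a row, whereas Elf3, Ehf, Gata3 and Grhl2 lie below other genes of theirs.

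The levels of the 9 genes were next set beside other transcription factors of nephron development and nephron segments. Of 35 such genes, 29 had a row, 24 a mean of at least 10 and 19 a mean of at least 100. Over all 35 genes these shares were close to the 66.5% and 50.3% of the table, where every gene has a row. Over the 29 genes with a row they were higher than in the table, whose 20624 genes include 13862 protein-coding ones. The shares among protein-coding genes alone were not computed. Hoxb7, a marker of the nephric duct and ureteric bud, had 378 per kilobase and Irx3, an Iroquois factor of the middle part of the nephron, had 317 per kilobase, on either side of the 373 per kilobase of Pax2. Hnf4g and Emx1 have no row in the table analysed here. Among genes with a row, 17 of the 29 listed factors and 5 of the 8 examined genes lay above the median of all genes, 28.6 per kilobase.

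Genes known as targets or partners of the 9 factors were unequal as well. Of 16 such genes, 10 had a row, 7 a mean of at least 10 and 5 a level above the median of all genes. In the whole table, where every gene has a row, 66.5% reached a mean of at least 10. The 7 genes lie below that share out of 16 and slightly above it out of 10. Cdh16, the kidney-specific cadherin and a known Pax8 target, had 1125 per kilobase. Npnt, a matrix protein of the ureteric bud and tubules, had 819 per kilobase. Jag1, a Notch ligand that Tfcp2l1 is known to control in the collecting duct, had 286 per kilobase. Ret, a receptor downstream of Gata3 and Pax2 in the nephric duct, has no row, nor have Cdh1 and Ovol2. Other genes of the list were lower. Lhx1 had 168 per kilobase and Gdnf had 63.3 per kilobase, both picked out after their values were seen and both above the median of all genes. Wnt4, a signal in tubule formation, had 22.3 per kilobase and Kcnj10 had 7.07 per kilobase, both picked out after their values were seen and both below the median of all genes. Cdh16, Npnt and Jag1 were named as the highest genes of the list, so their levels do not bear on a link between factor and target, which was not tested.

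The labels describe the cells as distal convoluted tubule cells, and the level of each factor was read with the markers of that segment. Of 19 markers, 11 had a row, 9 a mean of at least 10 and 6 a level above the median of all genes. Among all genes of the table, each with a row, 66.5% reached a mean of at least 10. The 9 markers lie below that share out of 19 and above it out of 11. The kinase Wnk1 had 359 per kilobase, Cnnm2, a protein of magnesium handling, had 122 per kilobase and the kinase Sgk1 had 114 per kilobase. These genes are also active in other cells. Of further markers, picked out after their values were seen, the kinase Wnk4 had 94.5 per kilobase and the potassium channel gene Kcnj16 had 78.0 per kilobase, both above the median of all genes. Egf, Kcnj10 and the magnesium channel gene Trpm6 had mean normalized counts of 48.3, 38.3 and 29.6 and lay below that median per kilobase. The defining markers Slc12a3, the thiazide-sensitive sodium chloride cotransporter, Pvalb, parvalbumin, and Calb1, calbindin, have no row in the table analysed here. The markers were thus mixed, with several of the segment's genes measured at clear levels and these 3 without a row. In RNA from whole cultures, fewer cells with a transcript and less transcript per cell cannot be told apart, which applies to the low levels of Grhl2, Gata3 and Ehf.

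General epithelial genes were mostly low. Of 14, 9 had a row, 4 a mean of at least 10, against 66.5% of all genes, and 2 a level above the median of all genes per kilobase. The 4 genes lie below the 66.5% both out of 14 and out of 9. Cdh16 was the highest of the 14. Epcam, a cell adhesion protein of epithelia, had 44.6 per kilobase and Esrp2, a splicing regulator, had 24.7 per kilobase. Krt8, a keratin of simple epithelia, had a mean normalized count of 0.980, and its partner Krt18 has no row. Among the 10 reference genes, whose levels ranged widely, Actb had 36707 per kilobase, Eef1a1 10774 per kilobase and B2m 1863 per kilobase. All 10 reference genes lay above the median of all genes, as did 5 of the 9 examined factors.

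**Figure D4:**
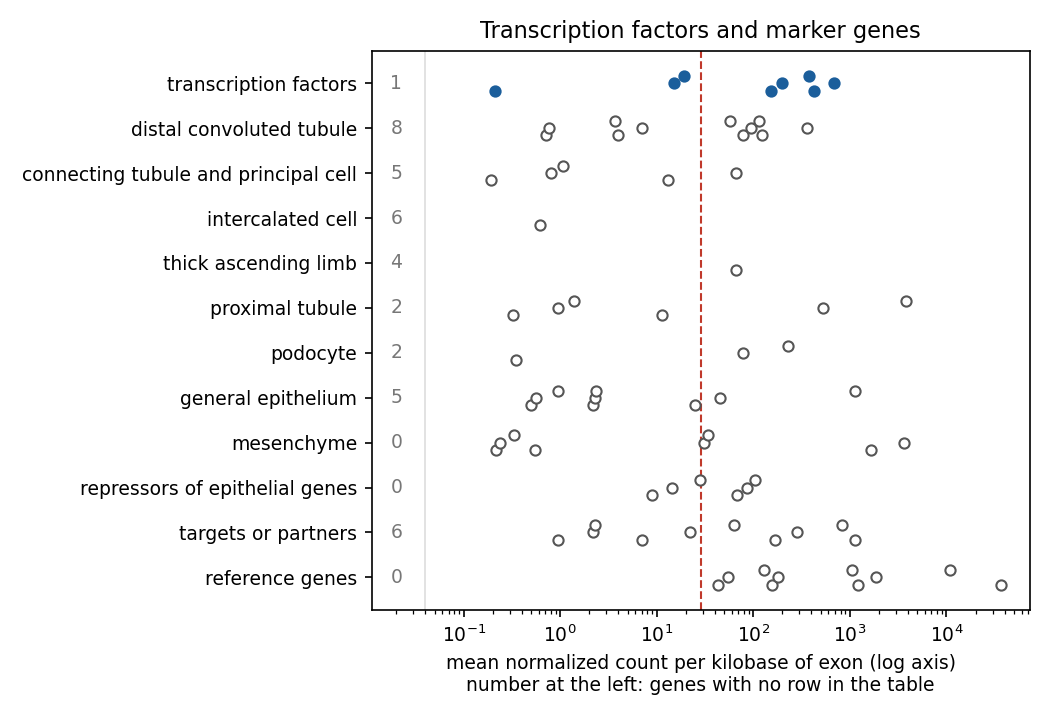
Level per kilobase of exon (log axis) over all samples for the examined transcription factors (filled) and for the genes of the marker, target, repressor and reference lists (open), with small vertical shifts to separate points. The number at the left counts genes with no row, and the dashed line is the median of all genes. Of the 19 distal convoluted tubule markers 8 have no row, against 1 of the 9 examined factors.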

How the data were processed

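The authors extracted total RNA, depleted ribosomal RNA and sequenced paired ends. They trimmed the reads with Trim Galore 0.4.5, mapped them to GRCm39 with STAR 2.7.5a, counted reads per gene with HTSeq 0.11.0 at default parameters (the strand setting is not named) and tested the genotypes against each other with DESeq2 1.22.0 (R 3.5.3), as given in the submitters' processing notes and methods. The deposited signal is the authors' mean normalized count of each gene over all samples. The methods name a cutoff of 5 counts for a gene and sample without saying how many samples had to reach it, and 5385 genes have a mean under 5. The table also holds 5 columns of the authors' own comparison (a fold change, its standard error, a test statistic, a p-value and an adjusted p-value), which were not used. It holds 0 columns of single samples, so the planned test of the genotypes was not made.

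Samples were grouped by genotype from their titles. Each mean was divided by the joined length of all exons of the gene in the GENCODE annotation (vM39, GRCm39), which gave a length for 20122 genes (97.6%). The authors counted reads with an Ensembl annotation of GRCm39, whose gene models may differ from these. The upper limit for a genotype is the mean times 6 divided by 3, and for a sample the mean times 6. All 20624 means are different, the 1257 under 1 included, so reads per library could not be worked back from them. Division of counts by 1 size factor per library would be likely to leave equal values among the lowest genes, so the exact normalization behind the mean is not known. The mean is not the length-normalized TPM that the methods also mention, since the means add up to 16746088, far above the fixed total of a TPM column. It rose with exon length across genes (Spearman correlation 0.595 over 20122 genes, which are not independent). The members and lists were chosen with earlier results of these data known. Named genes are the members, all genes of their families and, from each other list, the 3 highest per kilobase and up to 3 with a mean under 1 or no row, in the order listed, and some genes that this rule names are not reported here. Where a symbol had several identifiers, the highest was used. The alternatives were limits of 5 and 50 on the mean, sums over identifiers, other lengths and other genes to compare with. Ranks and percentages were tested on simulated data. Promoter windows came from the GRCm39 genome. Python 3.11.15, numpy 2.4.6, pandas 2.3.3 and matplotlib 3.10.9 were used.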

Additional observations from a re-analysis of the deposited data

How the results depend on the processing

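The number of genes with a mean of at least 10 was 7 of 9, and it was also 7 with a limit of 5, a limit of 50 and means summed over the identifiers of a symbol. The number above the median of all genes per kilobase was 5 with the joined exons, the longest transcript or the coding length, and against protein-coding genes or genes with a mean of at least 10. Without a length it was 6, because Ehf, with a mean of 108, then lay above the median of 104.5. All 28 pairs of the 8 genes kept their order with the coding length and without a length, and 27 kept it with the longest transcript, where Pax2 came before Tfcp2l1. Single levels moved more. Of 16 levels recomputed with another length, 10 moved by over 1.5 times, 2 of 8 with the longest transcript and 8 of 8 with the coding length, all upward because those lengths are shorter. No paired analysis was possible because the value analysed is a mean over all samples and carries no replicate number. For the same reason the alternatives planned for a test of the genotypes (another normalization, no low-count filter, the replicate number as a block, each replicate left out) were not run. Depth per sample and the spread between replicates are unknown, so values near the low end, such as that of Grhl2, have no error attached.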

Other observations

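Markers of other nephron segments and cell types were read in the same means. Of all genes in the table, each with a row, 66.5% had a mean of at least 10, the share to set beside the counts of this section. Connecting tubule and principal cell genes, among which Gata3 and Tfcp2l1 are known to act, had a row for 5 of 10 and a mean of at least 10 for 2. Hsd11b2, the enzyme that inactivates glucocorticoids in aldosterone-sensitive cells, had 65.8 per kilobase. Scnn1a, the alpha subunit of the epithelial sodium channel, had 13.1 per kilobase and Aqp3, a basolateral water channel, had 1.06 per kilobase. Scnn1g, the gamma subunit of the channel, had the lowest mean of the whole table, 0.618, and Aqp2 and Scnn1b have no row. Of 7 intercalated cell genes, 1 has a row, Aqp6, with a mean of 1.62, while Foxi1, Atp6v1g3 and Atp6v0d2 have none. Of 5 thick ascending limb genes, 1 has a row, the claudin Cldn19, with 65.8 per kilobase, and Slc12a1, Umod and Cldn16 have none.

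Some genes known from other nephron segments were high. The water channel Aqp1 had 3815 per kilobase and the endocytic receptor Lrp2 had 528 per kilobase, both known from the proximal tubule, and Cubn had 11.3 per kilobase. Of the 8 proximal tubule genes, 6 had a row and 3 a mean of at least 10, against 66.5% of all genes. Slc5a12 and Slc22a6 have no row. Of 5 podocyte genes, 2 had a mean of at least 10, Podxl with 230.5 and Synpo with 78.4 per kilobase. Wt1 had a mean of 2.22, and Nphs1 has no row. Of 8 mesenchymal genes, all had a row and 4 a mean of at least 10, with 3672 per kilobase for the intermediate filament gene Vim, 1663 per kilobase for Fn1, fibronectin, and 34.2 per kilobase for Acta2. The collagen gene Col1a1 also had a mean of at least 10, with 30.5 per kilobase. The 4 with a mean under 10, picked out after their values were seen, were the collagen genes Col1a2 (2.71) and Col3a1 (2.44) and the receptor genes Pdgfra (4.12) and Pdgfrb (4.48). Of 5 endothelial genes, 2 had a row, with means of 4.68 for Pecam1 and 1.04 for Tek and no row for Cdh5, Kdr and Emcn. Of 5 immune genes, 1 had a mean of at least 10, Cd68 with 41.9. Lyz2 had a mean of 2.57 and Ptprc of 5.36, and Adgre1 and Cd3e have no row.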
